A study of Mus musculus with 6 samples.

Results

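Fat cells release stored triglyceride when hormones and nerves raise cyclic AMP or cyclic GMP inside them, and the 9 genes described here encode receptors, enzymes and a kinase subunit that set those signals. They are the beta-adrenergic receptors Adrb3 and Adrb1, the natriuretic peptide receptors Npr1 and Npr3, the inhibitory receptors Hcar1 and Adora1, the adenylyl cyclase Adcy3, the phosphodiesterase Pde3b and the protein kinase A subunit Prkar2b. The genes were chosen by name for their place in adipocyte lipolysis, with earlier results of these data known. Ensembl identifiers in the count tables were matched to symbols on GRCm38. All 9 were found among 46603 identifiers, and all 9 passed the filter on low counts, as did 15828 genes in all.

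Beta-adrenergic receptors answer catecholamines from sympathetic nerves through a stimulatory G protein, adenylyl cyclase and protein kinase A, which phosphorylates perilipin and hormone-sensitive lipase and so starts lipolysis. Natriuretic peptides act beside this route through the guanylyl cyclase receptor NPR1 and cyclic GMP, while NPR3, which has no cyclase, removes the peptides from the circulation. Receptors for lactate (HCAR1) and adenosine (ADORA1) couple to an inhibitory G protein and hold lipolysis down, and insulin does so by activating PDE3B, which breaks down cyclic AMP.

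RNA was sequenced from visceral fat of the abdomen of untreated C57/Bl6 mice aged 18 months. The study compared 3 libraries from wild-type mice (WT) with 3 from mice without nuclear myosin 1 (NM1 KO), a nuclear isoform of the motor protein encoded by Myo1c. The comparison asks how the transcripts of this depot differ when nuclear myosin 1 is missing. The labels do not say how the allele was made, in which cells it acts or whether replicates are separate animals, so the p-values cover the spread among these samples alone, which may be technical.

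Levels are given in CPM, counts per 1e6 counts on library sizes scaled by TMM, and comparisons between genes in CPM per kilobase of exon. Fold changes are log2, NM1 KO minus WT, ± SE. Calls were made by the quasi-likelihood test of edgeR at an adjusted p below 0.05. Total counts lay between 24677758 and 33537818 per library. Fat cell markers were abundant in every library: Fabp4, a fatty acid carrier, lay between 7658 and 9993 CPM. NM1 KO replicate 1 stood apart from the other knockout libraries, with T and B lymphocyte markers at 328% of the WT mean against 57.7% and 56.6%, and the member values that rest on it are also given without it. Myo1c lay at 801, 759 and 801 CPM in the WT libraries and at 452, 697 and 551 CPM in the knockout libraries (log2 -0.47 ± 0.17, adjusted p = 0.151 by edgeR), a count that covers all isoforms of the locus and does not check the knockout.

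The upstream sequences of 3 of these genes are shown because Hcar1 is the gene that was called and Npr1 and Npr3 are the receptor pair whose fold changes had opposite signs. Each is the 250 bases before the RefSeq start on GRCm38.p6, read 5′ to 3′ on the minus strand of the reference. Hcar1 is at chr5:123880004-123880253, Npr1 at chr3:90465867-90466116 and Npr3 at chr15:11907372-11907621. Capitals mark the short form of the cyclic AMP response element (TGACG, either strand).
Hcar1: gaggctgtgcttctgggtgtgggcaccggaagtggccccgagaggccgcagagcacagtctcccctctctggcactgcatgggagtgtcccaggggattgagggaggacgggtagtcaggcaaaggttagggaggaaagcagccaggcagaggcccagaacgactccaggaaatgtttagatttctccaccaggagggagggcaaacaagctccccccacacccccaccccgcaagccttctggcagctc
Npr1: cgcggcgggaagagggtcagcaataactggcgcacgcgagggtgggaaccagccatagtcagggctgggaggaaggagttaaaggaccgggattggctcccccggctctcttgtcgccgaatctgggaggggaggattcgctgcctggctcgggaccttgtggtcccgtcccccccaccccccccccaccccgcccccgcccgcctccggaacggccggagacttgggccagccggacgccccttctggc
Npr3: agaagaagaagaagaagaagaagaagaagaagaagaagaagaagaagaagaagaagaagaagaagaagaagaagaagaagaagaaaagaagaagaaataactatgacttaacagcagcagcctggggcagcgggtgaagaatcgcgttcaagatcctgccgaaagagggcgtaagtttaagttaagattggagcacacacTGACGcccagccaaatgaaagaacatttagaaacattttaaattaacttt
The window of Npr3 opens with a long run of a repeated trinucleotide and held 1 short form, 50 bases before the start. Over the 300 bases from 250 before to 50 after the start, GC content was 59.7% for Hcar1, 69.7% for Npr1 and 39.0% for Npr3. The table held windows for 7 of the 9 genes. None of them contained the full element (TGACGTCA), which 1.79% of the table's 32851 windows contain. The short form, found in 20.8% of all windows and also part of the full element, was present in Npr3 and Adrb1, and the E-box CACGTG, found in 7.15%, in 1 window of Prkar2b. These matches describe the letters of the windows and no binding was measured.

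Of the 9 genes only Hcar1 was called, and it was lower in NM1 KO. Adrb3 had the widest difference, at 3.96-fold lower in NM1 KO, without passing the test, Npr1 had a negative and Npr3 a positive fold change, and the intracellular genes Adcy3, Pde3b and Prkar2b had log2 fold changes from 0.21 to 0.35. By edgeR 4.25% of all tested genes were called, 1.47% lower and 2.79% higher, so a single call among 9 genes cannot be set apart from that background. Before adjustment 3 of 9 had a p below 0.05 (Hcar1, Adrb3 and Npr1) against 23.7% of tested genes, and for 4 of 9 the groups were apart in CPM (Adrb3, Adcy3, Npr1 and Hcar1) against 29.9%. The median log2 fold change of the 9 was 0.21, with 4 negative and 5 positive, where all tested genes had a median of -0.0021 and an interquartile range from -0.25 to 0.30.

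**Figure D1:**
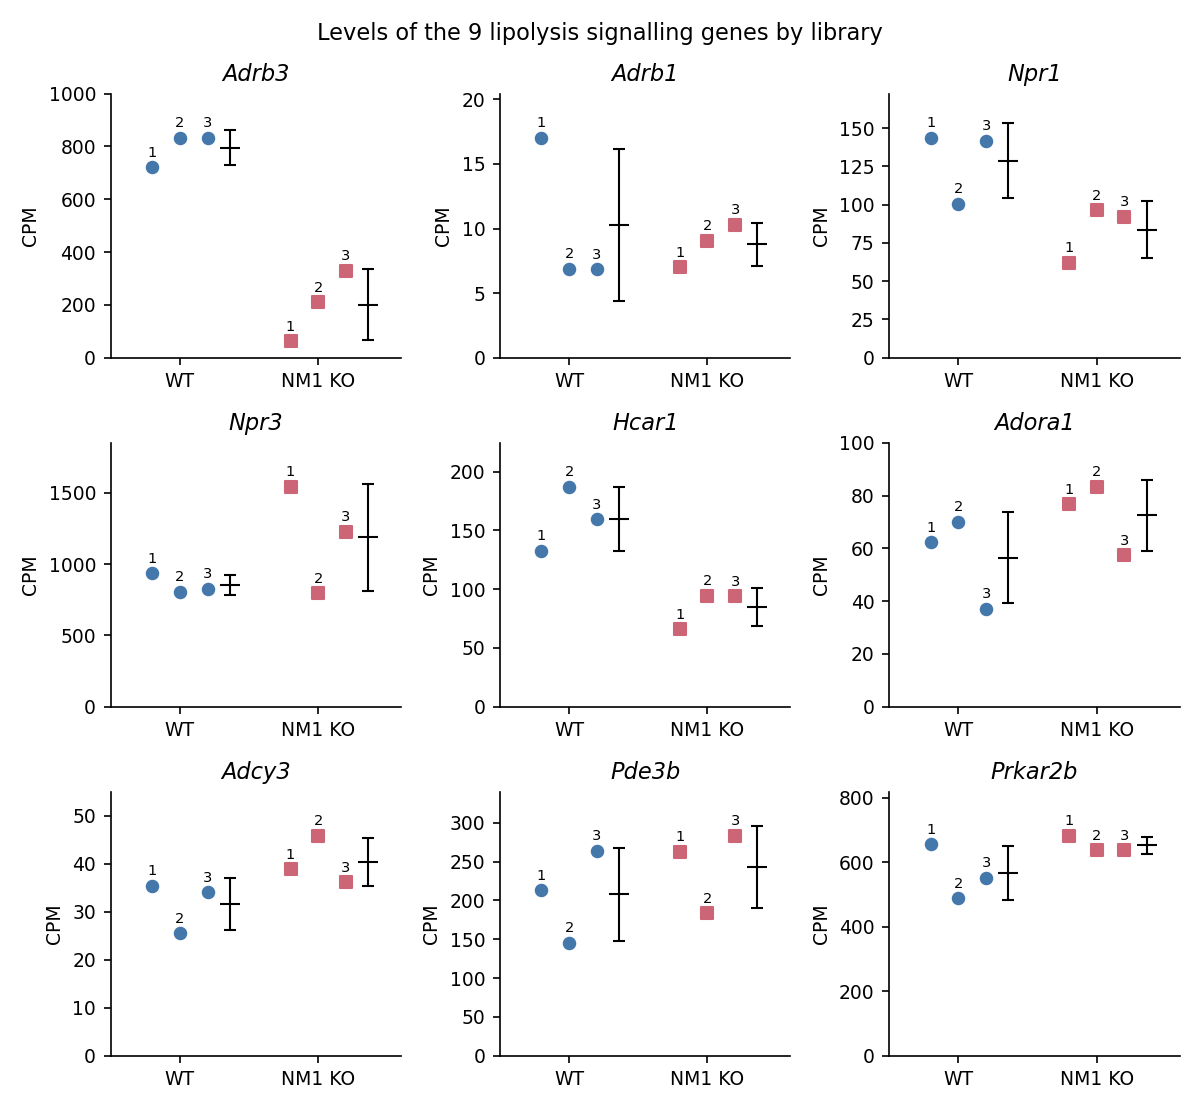
Level of each of the 9 genes in CPM (y axis, from 0, a separate scale per gene) in the 3 WT libraries (blue circles) and the 3 NM1 KO libraries (red squares), with the replicate number above each point and the mean ± SD beside each group. The Adrb3 points of NM1 KO spread from 62.2 to 330 CPM below WT points of 721 to 834, and those of Hcar1 from 66.0 to 94.5 below 133 to 187.

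Adrb3 (ENSMUSG00000031489, chr8:27225776-27250616 on GRCm38, minus strand) encodes the beta-adrenergic receptor most typical of rodent fat cells. It lay at 721, 833 and 834 CPM in WT replicates 1 to 3 and at 62.2, 210 and 330 CPM in NM1 KO replicates 1 to 3. Every knockout library was below every WT library, and NM1 KO replicate 1 was the lowest. The means were 796 ± 64.7 and 201 ± 134 CPM (SD, n = 3), and the coefficient of variation was 8.13% in WT against 66.8% in NM1 KO, whose highest library held 5.31 times the CPM of its lowest. With that spread the log2 fold change of -1.99 ± 0.52 had an unadjusted p of 0.0066 and an adjusted p of 0.0804 by edgeR, over the threshold. Without NM1 KO replicate 1 the fold change was smaller, -1.54 ± 0.22, and passed with an adjusted p of 0.0348 by edgeR. In that fit Adrb3 was the 1 member called, against 1.51% of 16133 genes tested. DESeq2 called Adrb3 and Hcar1, 2 of the 9, against 12.8% of 17135 genes (Adrb3 -1.98, adjusted p = 0.000472). In bulk tissue, fewer cells of a type and less RNA per cell cannot be told apart, here and in each result that follows.

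Adrb1 (ENSMUSG00000035283, chr19:56722199-56733113, plus strand), the beta receptor shared with the heart, was the scarcest of the 9. It lay at 17.0, 6.87 and 6.85 CPM in WT and at 7.02, 9.06 and 10.3 CPM in NM1 KO, from 171 to 461 counts per library. WT replicate 1 was the highest of all and the groups overlapped. The log2 fold change was -0.22 ± 0.39 (adjusted p = 0.765 by edgeR), and 0.36 without WT replicate 1, so no direction is given for it.

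The balance of the beta receptors was taken within each library, as counts of Adrb3 per count of Adrb1. This ratio was 42.3, 121 and 122 in WT and 8.87, 23.2 and 32.0 in NM1 KO. All knockout values lay under all WT values. On the log2 scale the means were 6.42 ± 0.88 and 4.23 ± 0.96 (SD, n = 3), a difference of -2.19 or 4.56-fold, and the exact permutation test gave a two-sided p of 0.1, the smallest that 3 against 3 can give. The difference lay between -2.70 and -1.65 when 1 library was left out.

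None of the receptors that raise lipolysis was called. Of 11 such genes tested, Adrb1, Adrb3 and Npr1 included, 0 were called by edgeR, 3 were below 0.05 before adjustment, all lower, and the median was -0.22. DESeq2 called 2 of them, both lower, and limma-voom 1, lower, where limma-voom called 10.4% of all genes tested. Gipr, the receptor of the gut hormone GIP, lay at 9.73, 6.58 and 5.09 CPM in WT and at 0.354, 1.53 and 1.97 CPM in NM1 KO (log2 -2.48 ± 0.58, adjusted p = 0.0617 by edgeR). As with Adrb3, its lowest library was NM1 KO replicate 1.

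Npr1 and Npr3 had fold changes of opposite sign, and neither was called. Npr1 (ENSMUSG00000027931, chr3:90450591-90465866, minus strand), the signalling receptor for atrial and B-type natriuretic peptide, lay at 144, 101 and 142 CPM in WT and at 62.2, 96.3 and 92.2 CPM in NM1 KO. Its groups did not overlap, although WT replicate 2 lay just over NM1 KO replicate 2. The means were 129 ± 24.4 and 83.6 ± 18.6 CPM (SD, n = 3), and the log2 fold change was -0.62 ± 0.21 (adjusted p = 0.134 by edgeR). Without NM1 KO replicate 1, the lowest library, it was -0.43 (adjusted p = 0.285). Markers of vascular endothelium, a cell type that also carries NPR1, were lower with it: 7 of 10 were called lower, all 10 had a negative fold change, and their summed level was 90.2% to 114% of the WT mean in WT and 35.3% to 54.1% in NM1 KO. Among them Egfl7, a factor secreted by endothelial cells, fell by 1.49 on the log2 scale, and Eng, a co-receptor of TGF-beta, fell by 1.07. Their part in the Npr1 difference was not tested.

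Npr3 (ENSMUSG00000022206, chr15:11839896-11907287, minus strand), the clearance receptor, lay at 937, 806 and 828 CPM in WT and at 1545, 794 and 1229 CPM in NM1 KO. NM1 KO replicates 1 and 3 were over all WT libraries, and NM1 KO replicate 2 was under them. The means were 857 ± 70.1 and 1189 ± 377 CPM (SD, n = 3), and the log2 fold change was 0.47 ± 0.24 (adjusted p = 0.277 by edgeR). Without NM1 KO replicate 2 it was 0.70 and passed (adjusted p = 0.0429), in a fit that called Npr3 and Hcar1, 2 of the 9, and 10.2% of all 16272 genes tested. Without NM1 KO replicate 1 it was 0.26 (adjusted p = 0.604), and with an offset for each library's GC content and gene length trends it was 0.16 (adjusted p = 0.655).

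Counts of Npr1 per count of Npr3 gave 0.154, 0.125 and 0.171 in WT, and 0.0402, 0.121 and 0.0750 in NM1 KO. The ratio was lower in all 3 knockout libraries than in any WT library, but WT replicate 2 and NM1 KO replicate 2 nearly met. On the log2 scale the means were -2.75 ± 0.23 and -3.81 ± 0.80 (SD, n = 3), a difference of -1.05 or 2.08-fold, and the exact permutation p was 0.1 (two-sided), the smallest possible. The difference shrank to -0.64 when NM1 KO replicate 1 was left out and grew to -1.44 when NM1 KO replicate 2 was, so the size of the shift rested on which knockout library was kept. This and the beta receptor balance were the 2 ratios tested.

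Around these receptors, 9 of 14 listed genes of natriuretic peptide and cyclic GMP signalling could be tested, with a median of -0.26. The peptide genes were near silent: Nppa had 0 counts in every library, and Nppb, Nppc, the peptide-activating protease gene Corin and the kinase gene Prkg2 were too low to test. Prkg1, the cyclic GMP-dependent kinase, was the 1 gene called. It rose from 0.518, 0.256 and 0.761 CPM in WT to 3.77, 2.69 and 4.52 CPM in NM1 KO (log2 2.84 ± 0.46, adjusted p = 0.0270 by edgeR), at a low level throughout. With 14, 8 and 19 counts in WT it passed the filter on low counts only with the help of the knockout libraries. Npr2 and Mme are named after their values were seen. Npr2, the receptor for C-type natriuretic peptide, lay at 129, 99.6 and 114 CPM in WT and at 51.6, 80.7 and 70.1 CPM in NM1 KO without passing the test (-0.76 ± 0.18, adjusted p = 0.0648). Mme, the peptide-degrading protease neprilysin, was not called either at a log2 fold change of 1.44 (adjusted p = 0.0940), with 110, 31.6 and 67.9 CPM in NM1 KO replicates 1 to 3 against a WT mean of 25.8 ± 3.61 (SD, n = 3).

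**Figure D2:**
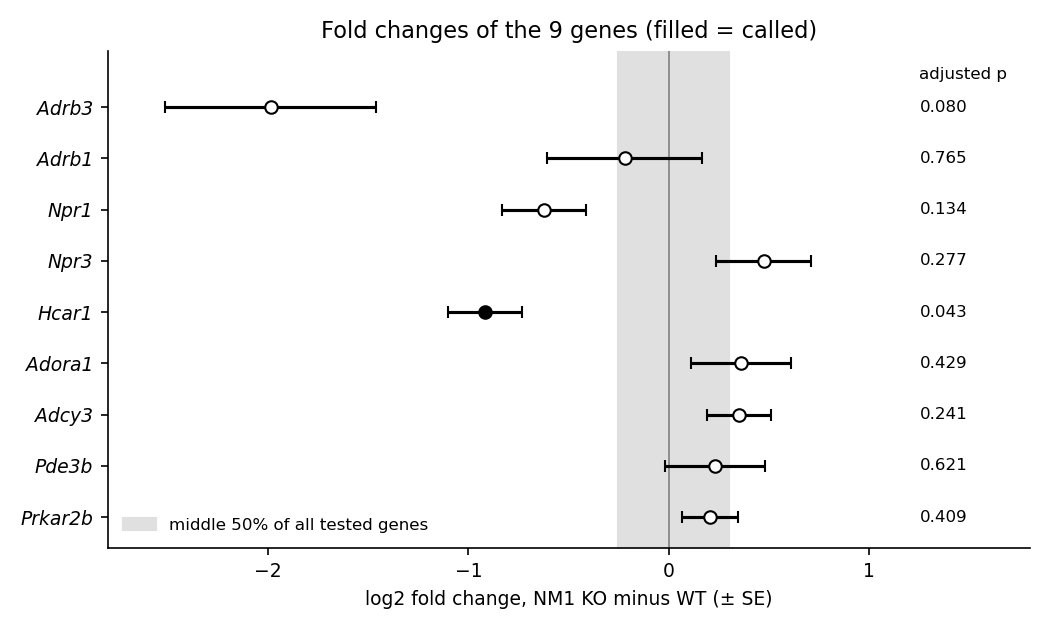
Log2 fold change of each of the 9 genes, NM1 KO minus WT, with bars of ± SE and the adjusted p of edgeR at the right; a filled point was called and the grey band spans the interquartile range of all tested genes, -0.25 to 0.30. Hcar1 at -0.92 is the filled point, and Adrb3 at -1.99 lies farthest from 0 with the longest bar.

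Hcar1 (ENSMUSG00000049241, chr5:123876736-123880020, minus strand, a single exon of 3285 bases), the lactate receptor through which lactate restrains lipolysis, fell in NM1 KO. It lay at 133, 187 and 160 CPM in WT and at 66.0, 94.5 and 93.7 CPM in NM1 KO. The groups were well apart, and NM1 KO replicate 1 was again the lowest. The means were 160 ± 27.2 and 84.7 ± 16.3 CPM (SD, n = 3), so the knockout libraries held 53.0% of the WT level (log2 -0.92 ± 0.19, unadjusted p = 0.00156, adjusted p = 0.0430 by edgeR). The adjusted p was close to the threshold, and the call was lost when WT replicate 1, 2 or 3 or NM1 KO replicate 1 or 3 was left out (adjusted p from 0.0754 to 0.136 by edgeR). Without NM1 KO replicate 1 the fold change was -0.75 (adjusted p = 0.0874).

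Hcar1 is a gene of mature fat cells, and the 10 markers of white adipocytes had a median of -0.27 with 0 called by edgeR. Before adjustment 3 of them were lower and 1 higher with a p below 0.05, and DESeq2 called 3 lower and 1 higher. Their summed level was 94.3%, 101% and 105% of the WT mean for WT and 86.6%, 94.2% and 86.7% for the knockout. When libraries were scaled so that the summed counts of these markers were equal, the median of all genes rose by 0.16. Hcar1 was then at -0.75 and still called (adjusted p = 0.0494 by edgeR), and Adrb3 at -1.82 (adjusted p = 0.0836). Marker fold changes before this scaling ran from -1.63 for Cfd to 1.16 for Lep, with 8 negative and 2 positive. Equal sums therefore do not match each marker.

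The genes whose profile over the 6 libraries was most like that of Hcar1, by the root mean square difference of centred log2 CPM among 11070 protein-coding genes, were Plk3 (0.0454) and Elmod3 (0.0528). Plk3, a polo-like kinase gene, lay at 12.5, 19.3 and 15.8 CPM in WT and at 6.50, 8.85 and 8.96 CPM in NM1 KO (log2 -0.97, adjusted p = 0.0567). Elmod3 fell from 45.8, 63.2 and 52.5 to 23.1, 32.7 and 29.5 CPM (log2 -0.92, adjusted p = 0.0365). For Adrb3, added after its values were seen, the nearest gene was Lnx1 at a larger distance of 0.322, at 10.4, 12.1 and 9.22 CPM in WT and 0.965, 2.69 and 3.57 CPM in NM1 KO. These genes were picked for likeness over all 6 libraries, the difference between the groups included. Their lower level in NM1 KO was thus built into the choice, and their values are a description only.

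Adora1 (ENSMUSG00000042429, chr1:134199223-134235431, minus strand), the adenosine receptor that restrains lipolysis, was not called. It lay at 62.3, 70.1 and 37.2 CPM in WT and at 76.7, 83.5 and 57.4 CPM in NM1 KO. The groups overlapped, with replicate 3 the lowest in both. The log2 fold change was 0.36 ± 0.25 (adjusted p = 0.429 by edgeR). Of 8 tested receptors coupled to the inhibitory G protein, Hcar1 alone was called by edgeR, 3 were below 0.05 before adjustment, all lower, and the median was -0.20. Hcar2, the receptor for ketone bodies and niacin encoded beside Hcar1, lay at 11.2, 28.4 and 17.7 CPM in WT and at 8.66, 12.9 and 9.25 CPM in NM1 KO (-0.90, adjusted p = 0.173), and its groups overlapped.

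None of the intracellular members was called. Adcy3 (ENSMUSG00000020654, chr12:4133103-4213525, plus strand), an adenylyl cyclase tied to body weight in mice, lay at 35.4, 25.5 and 34.0 CPM in WT and at 38.8, 45.8 and 36.1 CPM in NM1 KO. The groups did not overlap, but WT replicate 1 and NM1 KO replicate 3 lay less than 1 CPM apart. The log2 fold change was 0.35 ± 0.16 (adjusted p = 0.241 by edgeR). Cenpo lies on the other strand across the same locus at 6.01 to 8.30 CPM, and the labels do not say whether the counting used strand.

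Of all 10 adenylyl cyclases tested, 1 was called lower and 0 higher by edgeR, with a median of 0.36. Over all genes tested, 23.7% were below 0.05 before adjustment, and DESeq2 called 12.8% and limma-voom 10.4%, shares that apply to each list that follows. Below 0.05 before adjustment 4 of the cyclases were higher and 2 lower, DESeq2 called 3 higher and 1 lower, and limma-voom 1 in each direction. Of the 4 higher, Adcy1 (17, 8 and 53 counts in WT), Adcy2 (13, 7 and 11) and Adcy8 (17, 7 and 10) were low. They passed the filter on low counts only with the help of the knockout libraries, where they are high. Their direction is given as a description only. The cyclase called by edgeR was Adcy4, which fell from 33.6, 48.0 and 32.3 CPM to 8.27, 14.6 and 15.3 CPM (log2 -1.58 ± 0.27, adjusted p = 0.0307). Adcy4 is known from endothelial cells, whose markers were lower in the same libraries, and their part in it was not tested. Adcy7, a cyclase of blood cells named after its values were seen, lay at 71.7, 53.1 and 68.4 CPM in WT and at 105, 94.6 and 92.7 CPM in NM1 KO (0.60, adjusted p = 0.0579). Macrophage markers were higher in those libraries, at 163% to 196% of the WT mean against 84.8% to 113% in WT, with 3 of 10 called higher and a median of 0.42. The most abundant of them was Lyz2, the lysozyme gene (mean 1156 CPM in WT and 2536 CPM in NM1 KO), while Itgam (-0.16) and Cd14 (-0.08) had negative fold changes. The part of these markers in the Adcy7 difference was not tested.

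Pde3b (ENSMUSG00000030671, chr7:114415281-114539251, plus strand), the phosphodiesterase that insulin activates, lay at 213, 146 and 264 CPM in WT and at 263, 184 and 284 CPM in NM1 KO. Replicate 2 was the lowest in both groups, and the ranges overlapped over most of their width. The log2 fold change was 0.23 ± 0.25 (adjusted p = 0.621 by edgeR), and -0.092 with the offset for GC content and length, so no direction is given. Of the 15 cyclic AMP phosphodiesterases tested, 2 were called, both higher, and the median was 0.25. Below 0.05 before adjustment 5 were higher and 3 lower, and DESeq2 and limma-voom each called 4 higher and 1 lower. Pde4d, an enzyme of the rolipram-sensitive family, rose from 5.88, 3.52 and 4.21 to 11.2, 10.3 and 9.73 CPM (log2 1.20 ± 0.23, adjusted p = 0.0368). Pde11a, which degrades both cyclic nucleotides, rose from 0.148, 0.224 and 0.281 to 2.67, 1.04 and 1.97 CPM (log2 3.10 ± 0.51, adjusted p = 0.0286). With 4, 7 and 7 counts in WT it passed the filter on low counts only through the knockout libraries.

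Upstream of PDE3B in the insulin signal, 1 of 9 genes was called and the median was 0.11. Irs1, the docking protein of the insulin receptor, rose from 11.6, 10.7 and 11.7 CPM to 16.1, 23.0 and 26.3 CPM (log2 0.94 ± 0.20, adjusted p = 0.0452).

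Prkar2b (ENSMUSG00000002997, chr12:31958476-32061296, minus strand), the regulatory subunit that holds protein kinase A inactive in fat cells, had the fold change closest to 0 of the 9. It lay at 655, 489 and 552 CPM in WT and at 682, 637 and 636 CPM in NM1 KO. WT replicate 1 fell inside the knockout range. The means were 565 ± 84.1 and 652 ± 26.4 CPM (SD, n = 3), with a log2 fold change of 0.21 ± 0.14 (adjusted p = 0.409 by edgeR). Among 13 subunits, inhibitors and anchors of protein kinase A, 0 were called by edgeR, and the median was 0.16. Before adjustment 6 were below 0.05 (5 higher and 1 lower), against 23.7% of all tested genes. DESeq2 and limma-voom each called 3 higher, where they called 12.8% and 10.4% of all genes in either direction. Prkacb, a catalytic subunit, lay at 68.6, 63.7 and 75.6 CPM in WT and at 99.7, 88.8 and 97.4 CPM in NM1 KO (0.46 ± 0.11, adjusted p = 0.0594), chosen for naming after its values were seen. Pkib, an inhibitor of the kinase, was at 1.38 log2 units (adjusted p = 0.0591).

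Per kilobase of exon, and as the mean of all 6 libraries, the order of the 9 genes was Prkar2b at 167, Adrb3 at 148, Npr3 at 109, Hcar1 at 37.2, Pde3b at 24.7, Npr1 at 22.2, Adora1 at 11.2, Adcy3 at 5.75 and Adrb1 at 2.82 CPM per kilobase. The top of this order differed between the groups. In WT Adrb3 was first, at 236 ± 19.2 CPM per kilobase (SD, n = 3) against 155 ± 23.0 for Prkar2b and 91.3 ± 7.47 for Npr3, and these ranges did not overlap. In NM1 KO Adrb3 stood at 59.5 ± 39.7, under Prkar2b (179 ± 7.23) and Npr3 (127 ± 40.1) in 3 of 3 libraries, although its range overlapped that of Npr3. Hcar1 was over Pde3b in all WT libraries, while in NM1 KO they overlapped at 25.8 ± 4.95 and 26.7 ± 5.79. Pde3b was over Npr1 in 0 of 3 WT libraries, with overlapping ranges, and in 3 of 3 NM1 KO libraries. In NM1 KO the 2 ranges all but met, as the lowest Pde3b value and the highest Npr1 value both rounded to 20.14. Adcy3 and Adrb1 overlapped in WT but not in NM1 KO, whereas Npr1 and Adora1 overlapped in NM1 KO but not in WT. Npr3 over Hcar1 and Adora1 over Adcy3 held without overlap in both groups.

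**Figure D3:**
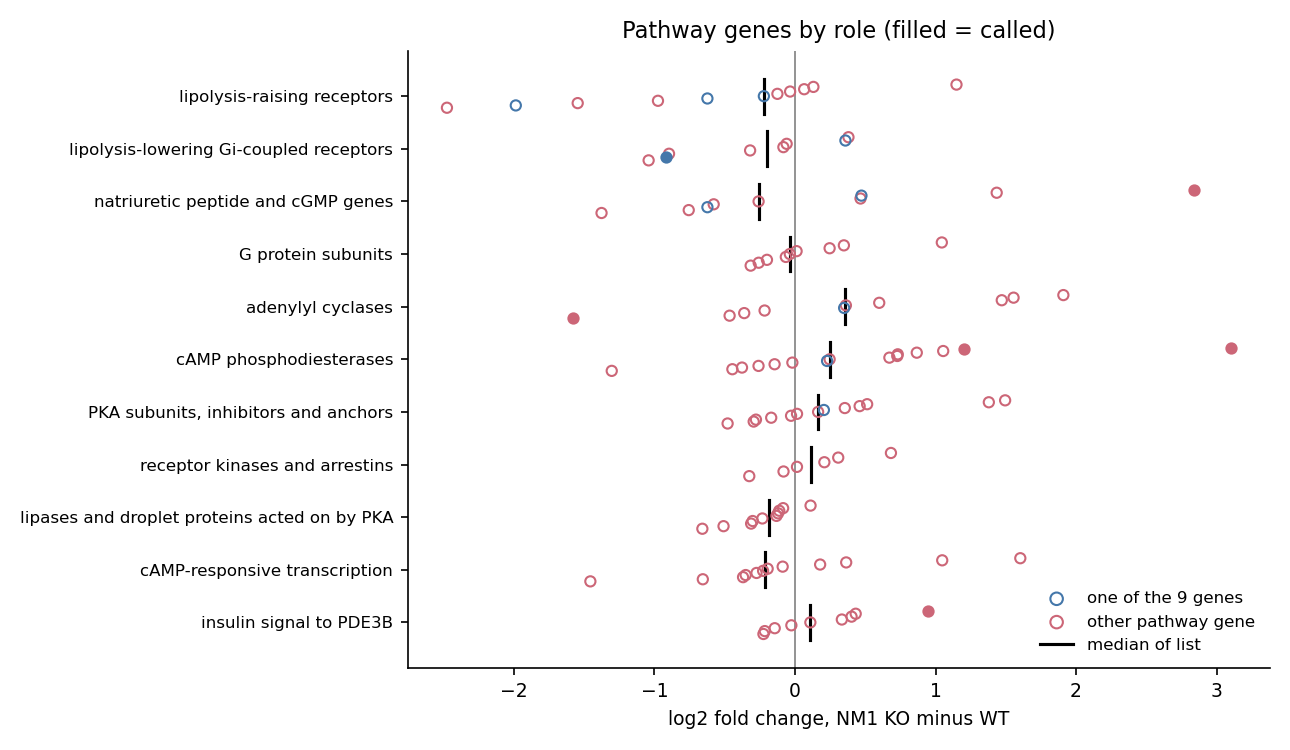
Log2 fold change, NM1 KO minus WT, of every tested gene in 11 lists of the pathway (one row per list), with the 9 genes in blue, other genes in red, called genes filled and the median of each list as a black bar. List medians lie between -0.26 and 0.36, and 5 genes other than Hcar1 are filled, 4 to the right and 1 to the left. The row of lipases labelled as acted on by PKA (protein kinase A) also holds related genes such as Fabp4.

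Beyond the 9 genes, 102 others of the pathway were tested and 5 were called, which is 4.90% and close to the 4.25% of all genes. Of these, 4 rose (Prkg1, Pde11a, Pde4d and Irs1) and 1 fell (Adcy4), and the median of the 102 was -0.062. Pde11a entered the test only through the knockout libraries, where it is high, so it had to differ. Prkg1 (14, 8 and 19 counts in WT) entered with the help of those libraries, where it is also high. The counts of calls are therefore given as a description only. The step from receptor to cyclase held no call among 9 G protein subunits (3 below 0.05 before adjustment, DESeq2 1), where Gng2, a gamma subunit, was at 1.04 ± 0.25 (adjusted p = 0.0626). The 6 receptor kinases and arrestins, which switch receptors off, had 0 called by edgeR, 2 below 0.05 before adjustment and 1 called by DESeq2, and Grk3 had the smallest p (0.68 ± 0.17, adjusted p = 0.0670).

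At the end of the pathway, 9 of 10 listed genes of lipases, droplet proteins and related proteins had a negative fold change, with a median of -0.18. None was called by edgeR, 2 were below 0.05 before adjustment and DESeq2 called 1. Pnpla2, the first lipase of triglyceride breakdown, lay at 2213, 2763 and 2241 CPM in WT and at 1194, 1661 and 1715 CPM in NM1 KO, without overlap (-0.66 ± 0.19, adjusted p = 0.0924 by edgeR). Among 12 tested genes of cyclic AMP-responsive transcription 0 were called by edgeR, 4 were below 0.05 before adjustment, all lower, DESeq2 called 3 lower, and the median was -0.21. Per1, a clock gene that cyclic AMP induces, lay at 132, 114 and 145 CPM in WT and at 70.5, 97.8 and 80.2 CPM in NM1 KO (-0.66 ± 0.15, adjusted p = 0.0601).

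**Figure D4:**
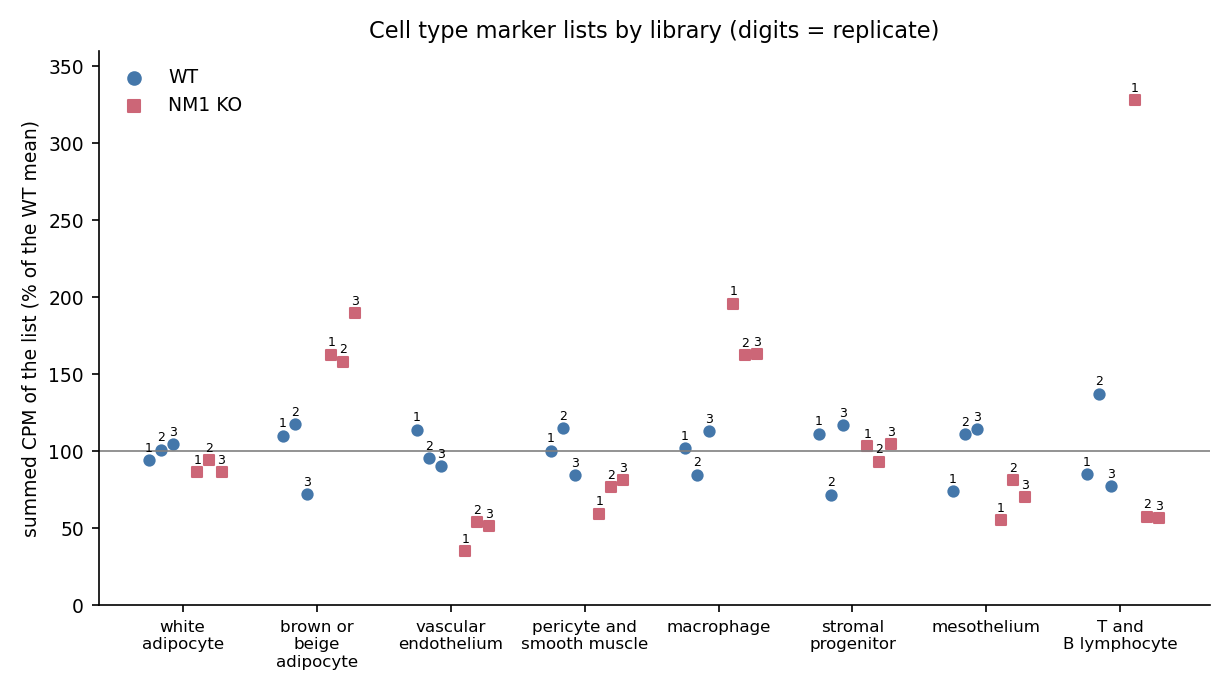
Summed CPM of 8 cell type marker lists in each library, as percent of the WT mean (y axis, from 0), with WT as blue circles, NM1 KO as red squares and the replicate number above each point. Endothelial markers of NM1 KO lie at 35.3% to 54.1% and macrophage markers at 163% to 196%, while white adipocyte markers lie at 86.6% to 94.2%.

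Markers of pericytes and smooth muscle had a median of -0.58 with 1 of 8 called, Myh11, which fell by 0.95 on the log2 scale, and mesothelial markers had a median of -0.48 with 2 of 8 called lower. Stromal progenitor markers had a median of -0.099 and 3 of 8 called higher. For sympathetic nerves, the source of the catecholamines that act on Adrb3, the defining genes Th and Dbh had 0 counts in all libraries, and 4 of 8 markers could be tested, with a median of -0.11 and 1 called. That was Stmn2, a neuronal microtubule regulator, which fell from 23.0, 43.7 and 27.9 to 12.8, 12.5 and 13.2 CPM (log2 -1.30, adjusted p = 0.0342 by edgeR). The other tested nerve markers were not called: Uchl1 was at -0.20, Slc6a2 at -0.02 and Slc18a2 at 0.09 on the log2 scale. With Th and Dbh at 0 counts, these values do not measure nerve supply. Which cells held the Stmn2 transcripts was not tested.

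Brown and beige fat cells carry high Adrb3, and of 5 tested markers of these cells 1 was called, Cidea, a droplet protein, which rose from 2.29, 2.43 and 1.96 to 5.28, 8.45 and 11.4 CPM (log2 1.91, adjusted p = 0.0287). Cox7a1, Cox8b, Ppargc1a and Dio2 also had positive fold changes but were not called, and their groups overlapped. Ucp1 (0, 1 and 1 counts in WT, 16, 13 and 1 in NM1 KO) and Elovl3 (at most 2 counts) were too low to test. All 7 markers summed to 72.4% to 117% of the WT mean in WT. In NM1 KO the sum was 158% to 190%. The sums were small, from 14.1 to 37.1 CPM, and the part of these cells in the Adrb3 difference was not tested. Of genes of neighbouring organs that a dissection can catch, 6 of 7 epididymal markers had 0 counts in all libraries and 6 of 7 pancreatic markers stayed under 1 CPM. The remaining pancreatic marker, Cela1, an elastase gene, lay at 33.6, 38.6 and 18.8 CPM in WT and at 63.8, 60.4 and 51.0 CPM in NM1 KO (log2 0.94, adjusted p = 0.0859 by edgeR), and was called higher by DESeq2 and limma-voom.

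**Figure D5:**
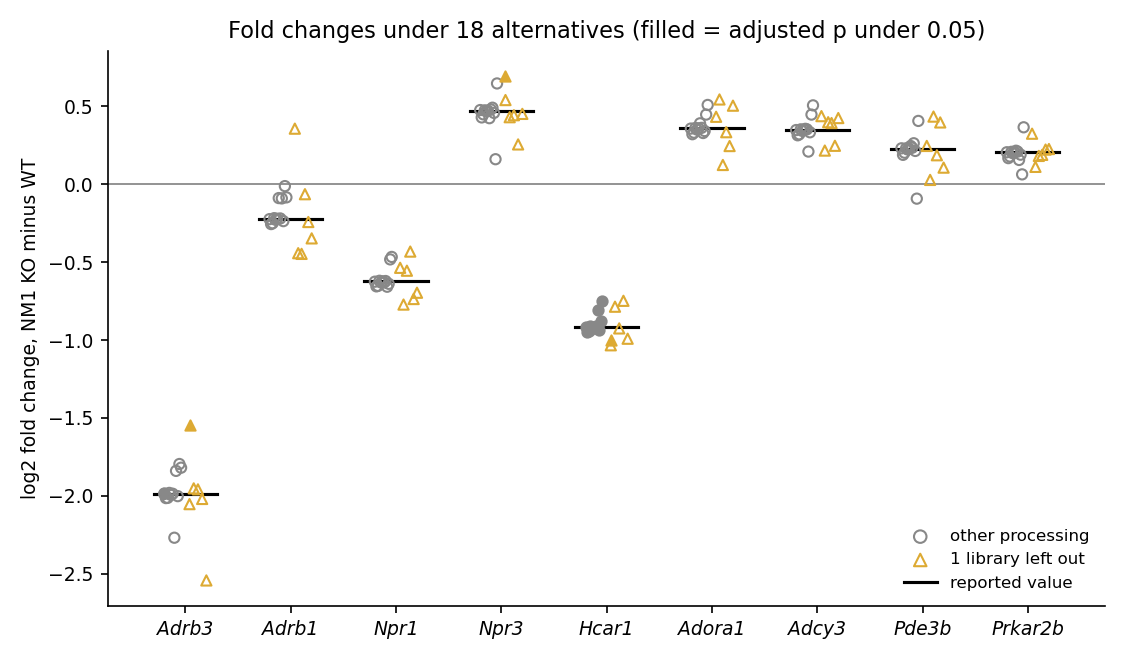
Log2 fold change of each of the 9 genes, NM1 KO minus WT, under 18 other ways of processing or choosing libraries (grey circles, other processing; yellow triangles, 1 library left out; filled, adjusted p under 0.05), with the reported value as a black bar. Hcar1 stays between -1.03 and -0.75 and Adrb3 between -2.54 and -1.54, while Adrb1 and Pde3b have points on both sides of 0.

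Across these 18 alternatives Adrb3, Npr1 and Hcar1 kept a negative fold change, and Npr3, Adora1, Adcy3 and Prkar2b a positive one. The adjusted p ranged from 0.000472 to 0.258 for Adrb3, from 0.0540 to 0.305 for Npr1 and from 0.000410 to 0.136 for Hcar1. Since the CPM ranges of Adrb3, Npr1, Hcar1 and Adcy3 do not overlap between the groups, leaving out a library cannot turn the order of their CPM values.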

How the data were processed

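Visceral fat RNA was made into 3 WT and 3 NM1 KO libraries with the NEBNext Ultra II RNA kit, per the labels' protocols. Per the submitters' processing notes, reads were handled with HISAT2 2.0.4, HTSeq, Trimmomatic 0.36, SAMtools 0.1.19 and FastQC on GRCm38. No source used here gives the annotation, the strand setting or the selection of messenger RNA. The authors deposited whole-number counts per Ensembl gene for each library, with no normalization. Of 46603 identifiers, 46091 matched GENCODE M21, which gave symbols, positions and exonic lengths, and the 512 others held 0.033% of counts. Rows that name no gene numbered 0.

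The test across genes was that of edgeR 4.0.16 under R 4.3.3 (filterByExpr, TMM, robust quasi-likelihood fit, genotype as the only term, two-sided, Benjamini-Hochberg adjustment over all tested genes), tested on simulated data first. The common biological coefficient of variation was 25.3%. No libraries agreed within sampling noise (chi-square per degree of freedom at least 35.9 within groups). Receptor ratios were compared by exact permutation. Alternatives included DESeq2 1.42.0, limma-voom with sample quality weights (limma 3.58.1), other size factors and filters, leaving out each library in turn, a replicate block, an offset for GC content and length, and scaling to adipocyte markers.

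The 9 genes, the 11 pathway lists and the 11 marker lists were chosen with earlier results of these data known. Named were the 9 genes and Myo1c, from each pathway list up to 2 called genes or else the gene with the smallest p, from each marker list the most abundant gene and up to 2 called genes, and the 2 genes most like each called member with a mean of at least 5 CPM. Not every gene so selected is printed. Promoter windows are from RefSeq.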

Additional observations from a re-analysis of the deposited data

How the results depend on the processing

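The number of genes called depended on the method and on single libraries: 673 as reported, 336 with a replicate block, 2193 by DESeq2, 1648 by limma-voom with sample quality weights, and from 1 to 1654 when 1 library was left out (37, 4 and 1 without WT replicates 1, 2 and 3, and 244, 1654 and 5 without NM1 KO replicates 1, 2 and 3). Of the 9 genes, DESeq2 called 2 (Adrb3 and Hcar1), and leaving out 1 library gave from 0 to 2: Adrb3 without NM1 KO replicate 1, Npr3 and Hcar1 without NM1 KO replicate 2, and none without any of the other 4 libraries. The other settings called Hcar1 alone. Same-numbered samples deviated from their group means with correlations of -0.060, -0.035 and 0.19 for replicates 1 to 3, so the numbers were not taken to pair them. With the block Hcar1 remained called (adjusted p = 0.0368 by edgeR). The differences in both ratios are the same with the block by construction. Their sign-flip p was 0.25, the smallest that 3 pairs can give. Of 162 fold changes of the 9 genes under the alternatives, 152 kept their direction and side of the threshold, 5 lost and 3 gained a call, and 2 reversed: Adrb1 was 0.36 without WT replicate 1 (from -0.45 to 0.36 over the libraries left out in turn) and Pde3b -0.092 with the GC and length offset. The causes were not tested. Adrb1 had the lowest counts of the 9, from 171 to 461 per library.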
